A study of Mus musculus with 12 samples.

Results

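The 32 genes of cholesterol and fatty acid synthesis described here, a pathway driven by the sterol regulatory element-binding proteins (SREBPs), were chosen by symbol as enzymes of sterol synthesis, their regulators, a sterol carrier and enzymes of fatty acid synthesis. They are 32 of the 25904 gene symbols in the expression table, and all 32 were among the 15246 genes that passed the filter on low values, which kept genes with at least 1 CPM (reads of a gene relative to all reads of its library, on a common scale) in at least 3 libraries. The lowest value of any of them in any library rested on 406 reads. They were followed in mid-colon RNA of mice held free of specific pathogens, 7 weeks old, that drank 3% dextran sulfate sodium (DSS), a polysaccharide that injures the colonic lining. Harvest was on days 0, 2, 4 and 6 with 3 libraries each, and the labels name no strain, genotype or sex. They assign clean water to some mice but name no water group on a later day, so DSS, age and the day of harvest cannot be told apart. Since no label says that replicates were separate animals, p-values reflect only how much these samples spread, which may be technical.

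Cholesterol and fatty acids are built from acetyl-CoA by enzymes whose genes are switched on together by the SREBPs. The SREBP precursors sit in the endoplasmic reticulum with the escort protein SCAP. When membrane sterol is low, SCAP carries them to the Golgi, where proteases release the part that enters the nucleus, and when sterol is high, INSIG proteins hold SCAP back. SREBP2, encoded by Srebf2, acts mainly on sterol genes and SREBP1, encoded by Srebf1, mainly on fatty acid genes, often together with the CCAAT-binding factor NF-Y. The epithelium of the colon renews itself continuously and needs membrane lipid.

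The libraries held 30979977 to 40930613 reads. Libraries of a day correlated across genes at r of 0.966 or more at days 0, 2 and 4, but day 6 replicate 2 correlated with the other libraries of its day at 0.955 and 0.914. The tissue label was checked with 13 epithelial markers, which were detected in every library. Of the fat cell markers, Adipoq lay between 0 and 3.04 CPM and Plin1 between 0 and 1.53 CPM. Both were highest in day 0 replicate 1, as was Cfd, with 44.5 CPM there and 0.311 to 9.08 CPM elsewhere, while Fabp4 reached 76.4 CPM in day 6 replicate 2. Day 0 replicate 1 also held the highest value of its day in 14 of the 18 enzymes of sterol synthesis, and the part of fat in that was not tested. Over all tested genes the log2 fold change against day 0 had medians of 0.04, 0.13 and 0.14 on days 2, 4 and 6. Of the genes called at day 4, 63.8% were higher. That share was 50.6% under median-of-ratios scaling, 46.9% under quantile normalization and 49.6% by edgeR. For day 6 the corresponding shares were 65.5%, 51.4%, 46.5% and 53.9%, and from day 2 to day 4 they were 61.9%, 53.3%, 48.6% and 53.2%.

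The promoters of 6 genes are shown. Hmgcs1, Insig1 and Acat2 are the members whose window held the sterol regulatory element core, Mvd and Lss fell further than Acat2 at day 2 with no core, and Insig2 did not fall. Each sequence is the 250 bases before the RefSeq start of the gene, read in its own direction on GRCm38.p6, the assembly also called mm10. Capitals mark the sterol regulatory element core CACNCCAC and the NF-Y motif CCAAT, each on either strand, so that CCAAT on the other strand reads ATTGG. Hmgcs1 lies at chr13:119690101-119690350 on the plus strand, Insig1 at chr5:28071162-28071411 on the plus strand, Acat2 at chr17:12960726-12960975 on the minus strand, Mvd at chr8:122443423-122443672 on the minus strand, Lss at chr10:76531355-76531604 on the plus strand and Insig2 at chr1:121332590-121332839 on the minus strand.
Hmgcs1: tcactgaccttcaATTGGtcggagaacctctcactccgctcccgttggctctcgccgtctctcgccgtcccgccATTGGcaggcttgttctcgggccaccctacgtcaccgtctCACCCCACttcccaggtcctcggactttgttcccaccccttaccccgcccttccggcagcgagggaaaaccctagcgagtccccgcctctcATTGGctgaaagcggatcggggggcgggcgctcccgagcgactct
Insig1: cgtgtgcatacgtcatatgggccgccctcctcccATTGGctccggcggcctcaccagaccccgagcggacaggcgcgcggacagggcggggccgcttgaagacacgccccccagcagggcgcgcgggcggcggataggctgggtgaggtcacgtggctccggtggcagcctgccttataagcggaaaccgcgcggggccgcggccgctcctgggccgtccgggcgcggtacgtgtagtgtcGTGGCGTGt
Acat2: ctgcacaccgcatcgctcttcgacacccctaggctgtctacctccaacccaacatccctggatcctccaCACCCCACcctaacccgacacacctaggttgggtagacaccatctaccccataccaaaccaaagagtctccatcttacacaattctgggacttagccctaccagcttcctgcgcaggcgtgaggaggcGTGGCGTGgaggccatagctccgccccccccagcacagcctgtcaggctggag
Mvd: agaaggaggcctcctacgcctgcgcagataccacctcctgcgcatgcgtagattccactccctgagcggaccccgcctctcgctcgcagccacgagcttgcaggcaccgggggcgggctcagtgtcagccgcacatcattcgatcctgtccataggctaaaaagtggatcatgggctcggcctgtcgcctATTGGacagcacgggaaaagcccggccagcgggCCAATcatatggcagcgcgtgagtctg
Lss: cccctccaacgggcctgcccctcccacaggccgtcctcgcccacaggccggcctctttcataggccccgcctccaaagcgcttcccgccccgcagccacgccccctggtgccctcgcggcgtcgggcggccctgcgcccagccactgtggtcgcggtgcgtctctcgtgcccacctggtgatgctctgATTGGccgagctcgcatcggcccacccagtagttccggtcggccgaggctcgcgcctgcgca
Insig2: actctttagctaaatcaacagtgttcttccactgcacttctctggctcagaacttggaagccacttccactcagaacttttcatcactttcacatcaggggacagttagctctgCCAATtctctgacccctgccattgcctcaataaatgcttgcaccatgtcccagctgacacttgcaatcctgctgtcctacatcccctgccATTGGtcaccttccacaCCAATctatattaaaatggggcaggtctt
Hmgcs1 held 1 core, which starts 136 bases before the gene start and belongs to the longer element TCACNCCAC, and 3 CCAAT motifs. Insig1 held 1 core, 9 bases before the start on the other strand, and 1 CCAAT motif. Acat2 held 2 cores, 181 and 53 bases before the start, and no CCAAT motif. Mvd held 2 CCAAT motifs, Lss 1 and Insig2 3, and these had no core. Of the 14 members that fell at day 2, 10 had a window in the RefSeq table, and in 7 of these it held no core.

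Over the 300-base windows that run from 250 bases before to 50 after a start, 26 of the 32 genes had at least 1 window in the RefSeq table, 35 windows in all. CCAAT was present in 23 of these, or 65.7%, against 37.4% of 32851 windows of all genes. The GC box GGGCGG, a motif of Sp1, was in 26 of them, or 74.3%, against 35.7%. The core CACNCCAC was in 3 windows, or 8.57%, against 6.24%, the full TCACNCCAC in 1 window against 1.24% of all, and the E-box CACGTG in 6, or 17.1%, against 7.15%. The core overlaps the full element, and these matches are letters only and show no binding.

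The enzymes of sterol synthesis led the falls at day 2 against day 0. Of the 32 genes, 14 fell and none rose at day 2 (limma, Benjamini-Hochberg adjusted p under 0.05). The share called lower among all genes was 0.203%, 31 genes, so 14 of these 31 (45.2%) were members. No member was higher at an unadjusted p under 0.05 either, nor called higher by edgeR or DESeq2, and 22 were lower at that level, while edgeR called 12 members lower of 22 genes in all and DESeq2 21 of 357. The median log2 fold change was -0.85, or -0.90 relative to all genes, and all 3 libraries of day 2 lay below all 3 of day 0 for 25 members, against 12% of all genes. They lay above them for 1, Insig2, against 18.7%. In whole tissue, fewer cells of a type and less RNA per cell cannot be told apart.

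**Figure D1:**
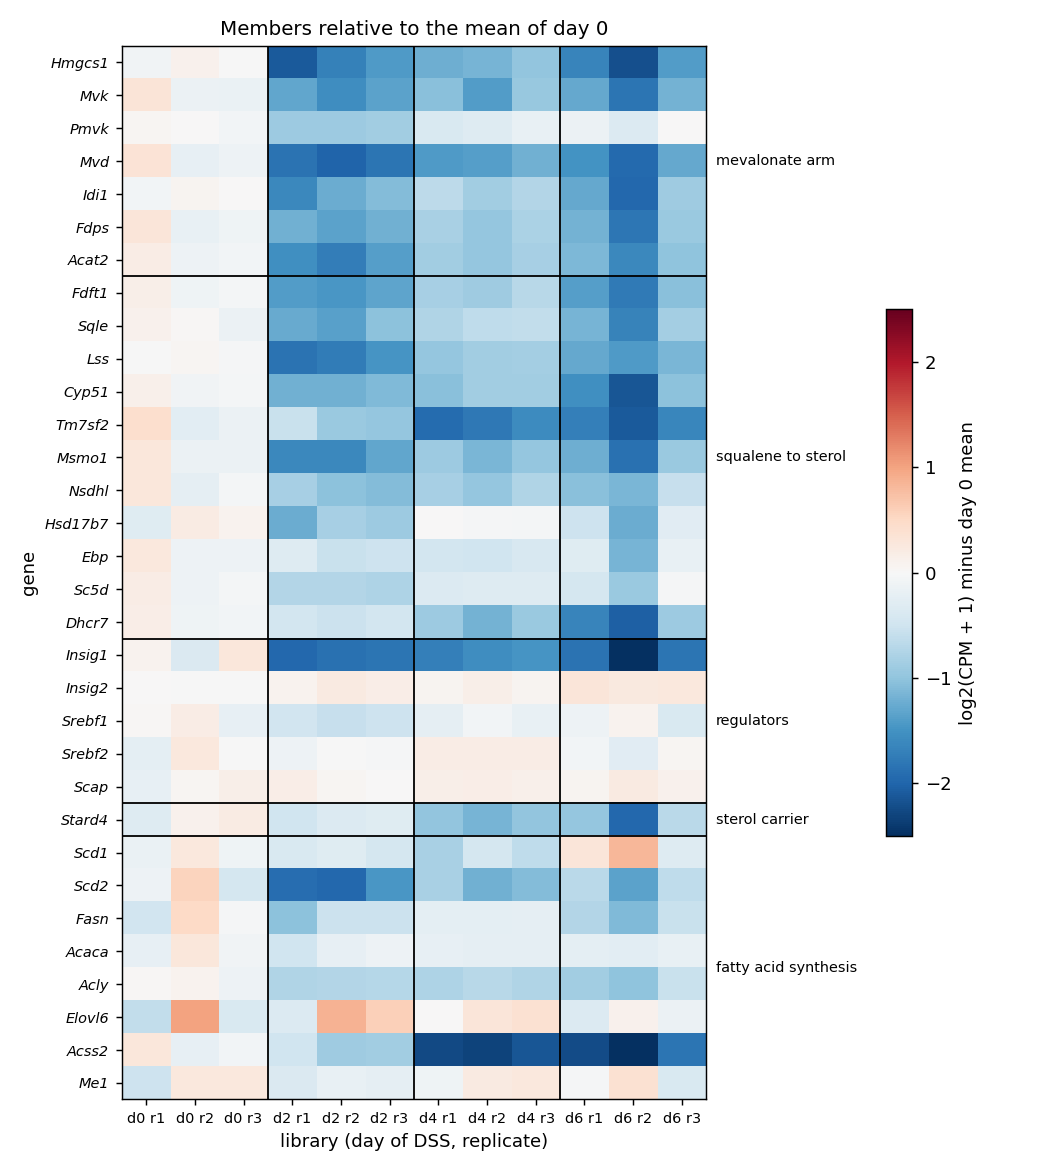
Each row is 1 of the 32 genes and each column 1 of the 12 libraries, and colour gives log2(CPM + 1) minus the mean of the 3 day 0 libraries. The sterol rows and Insig1 turn blue at day 2, several are paler at day 4 and darker again at day 6, while Srebf2, Scap and Insig2 stay near 0.

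The arm that makes isoprenoid units from acetyl-CoA was lower at day 2 in 7 of 7 enzymes, against 0.203% of all genes. Their log2 fold changes ran from -0.89 to -1.89. Acat2, the cytosolic thiolase that joins acetyl-CoA units, had 77.9, 61.8 and 65.1 CPM at day 0 and 22.8, 19.9 and 25.7 CPM at day 2 (log2 fold change -1.54 ± 0.17 with its standard error, adjusted p = 0.00404). Hmgcs1, the synthase that makes HMG-CoA, had 652, 744 and 685 CPM at day 0 and 162, 213 and 261 CPM at day 2, with no overlap. Its log2 fold change was -1.73 ± 0.22 (limma adjusted p = 0.00664). Mvd, which decarboxylates mevalonate diphosphate (chr8:122433601-122443422, minus strand, GENCODE release M21 on GRCm38), had 205, 139 and 147 CPM and then 44.4, 39.5 and 44.8 CPM, and its mean at day 2 was 26.2% of that at day 0 (-1.89 ± 0.18, limma adjusted p = 0.00233). The day 2 libraries lay close together for this gene, and each was below the lowest of day 0. The mevalonate kinases Mvk and Pmvk fell to 36.7% and 52.8% of their day 0 means. Idi1, the isomerase of the isoprenoid unit, and Fdps, which joins such units into farnesyl diphosphate, fell to 39.96% and 41.4%. For these 4 too, the day 2 libraries lay below those of day 0. Mvk had 81.6, 58.6 and 57.8 CPM at day 0 against 25.9, 21.7 and 25.1 CPM at day 2 (-1.40 ± 0.20, limma adjusted p = 0.0148), and Pmvk 40.99, 39.8 and 37.9 CPM against 20.7, 20.7 and 21.3 CPM (-0.89 ± 0.12, 0.00977). Idi1 had 70.1, 77.4 and 73.96 CPM against 23.5, 30.7 and 34.3 CPM (-1.31 ± 0.23, limma adjusted p = 0.0418), and Fdps 204, 144 and 153 CPM against 71.5, 64.6 and 71.6 CPM (-1.24 ± 0.20, 0.0299). Among the 7, Pmvk had the smallest fold change and the tightest day 2 libraries in CPM.

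The mevalonate enzymes stayed below day 0 for the rest of the course, apart from Pmvk, which did not pass at days 4 and 6. Hmgcs1 had 298, 307 and 351 CPM at day 4 and 221, 149.9 and 263 CPM at day 6, still under every day 0 library (log2 fold changes -1.12 ± 0.22 and -1.75 ± 0.22, limma adjusted p = 0.00248 and 0.000107). Mvd had 59.99, 61.7 and 69.5 CPM and then 56.2, 41.2 and 65.8 CPM (-1.33 ± 0.18 and -1.58 ± 0.18, limma adjusted p = 0.000291 and 6.76e-05). Every day 4 library of Mvd lay above those of day 2, and day 6 replicate 2 lay within the range of day 2. Acat2 had 36.5, 34.1 and 37.7 CPM and 30.7, 21.5 and 33.2 CPM on those days (-0.89 ± 0.17 and -1.25 ± 0.17, limma adjusted p = 0.00204 and 0.000183).

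From farnesyl diphosphate to cholesterol, 5 of 11 enzymes fell at day 2, against 0.203% of all genes. In all 11 the day 2 libraries lay below those of day 0, against 12% of all genes. Fdft1, squalene synthase, fell from 266 ± 25.6 to 100.4 ± 4.97 CPM (mean ± SD of 3 libraries, -1.39 ± 0.17, limma adjusted p = 0.00664), and Sqle, squalene epoxidase, from 301 ± 26.96 to 129 ± 15.7 CPM (limma adjusted p = 0.0202). Lss, which closes the sterol ring (chr10:76531588-76557138, plus strand, same annotation), had 114, 118 and 112 CPM at day 0 and 31, 33.4 and 40.5 CPM at day 2. With a log2 fold change of -1.69 ± 0.12 it had the smallest adjusted p of the members at day 2, 0.000213 by limma. Msmo1, a methyl sterol oxidase, had 357, 265 and 262 CPM at day 0 and 95.4, 94.7 and 117 CPM at day 2 (-1.51 ± 0.22, limma adjusted p = 0.0156). Nsdhl, a sterol dehydrogenase, had 77.9, 54.9 and 61.5 CPM and 35.6, 30.8 and 29.7 CPM (-0.98 ± 0.17, 0.0428), so both were at or below 49.4% of day 0. The others did not pass the test at day 2: Cyp51, lanosterol demethylase, stood at 44.1% (limma adjusted p = 0.0585) and Hsd17b7, a sterol reductase, at 49.2% (0.114). Sc5d, the sterol desaturase, stood at 59.2% and Tm7sf2, a sterol reductase, at 55.1%. Ebp and Dhcr7, which like Sc5d act late in the pathway, stood at 71.5% and 70.7%. By days 4 and 6 Cyp51 passed (-0.92 ± 0.22 and -1.57 ± 0.22, limma adjusted p = 0.00808 and 0.000259). Ebp and Sc5d passed in none of the 6 comparisons, with 87.5, 66.2 and 66.1 CPM and 134, 107 and 114 CPM at day 0 against 58.6, 31.9 and 63.5 CPM and 86.8, 61.2 and 116 CPM at day 6. Ebp lay below day 0 in every library of days 2, 4 and 6, and Sc5d in those of days 2 and 4. Sc5d passed the limma F test over the 4 days (adjusted p = 0.0379), and Ebp did not (0.175).

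The count of 14 moved with single libraries, as did the count over all genes. Without replicates 1, 2 and 3 of day 0 it was 7, 5 and 8, where the share of all genes called lower was 0.138%, 0.0658% and 0.079%. Without those of day 2 it was 6, 6 and 9, against 0.0658%, 0.0592% and 0.0921%. Day 6 replicate 2 is in neither group of this comparison and bears on it through the pooled variance and the set of genes tested. Without that library the count was 21, against 2.32% of 15124 genes. Lss, Mvd, Acat2, Fdft1 and Insig1 kept their calls without each of the 12 libraries in turn, with a highest adjusted p of 0.0486. Hmgcs1 lost its call without day 0 replicate 2 (0.0506), Pmvk without that library or day 2 replicate 1 or 2 (up to 0.0727) and Scd2 without those or day 0 replicate 1 (up to 0.136). Mvk (up to 0.0961) and Sqle (0.137) lost theirs without any library of day 0 or day 2, as Msmo1 did except without day 2 replicate 3 (0.109). Idi1, Fdps and Nsdhl kept theirs only without day 6 replicate 2 or 3 (elsewhere up to 0.185, 0.175 and 0.225).

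**Figure D2:**
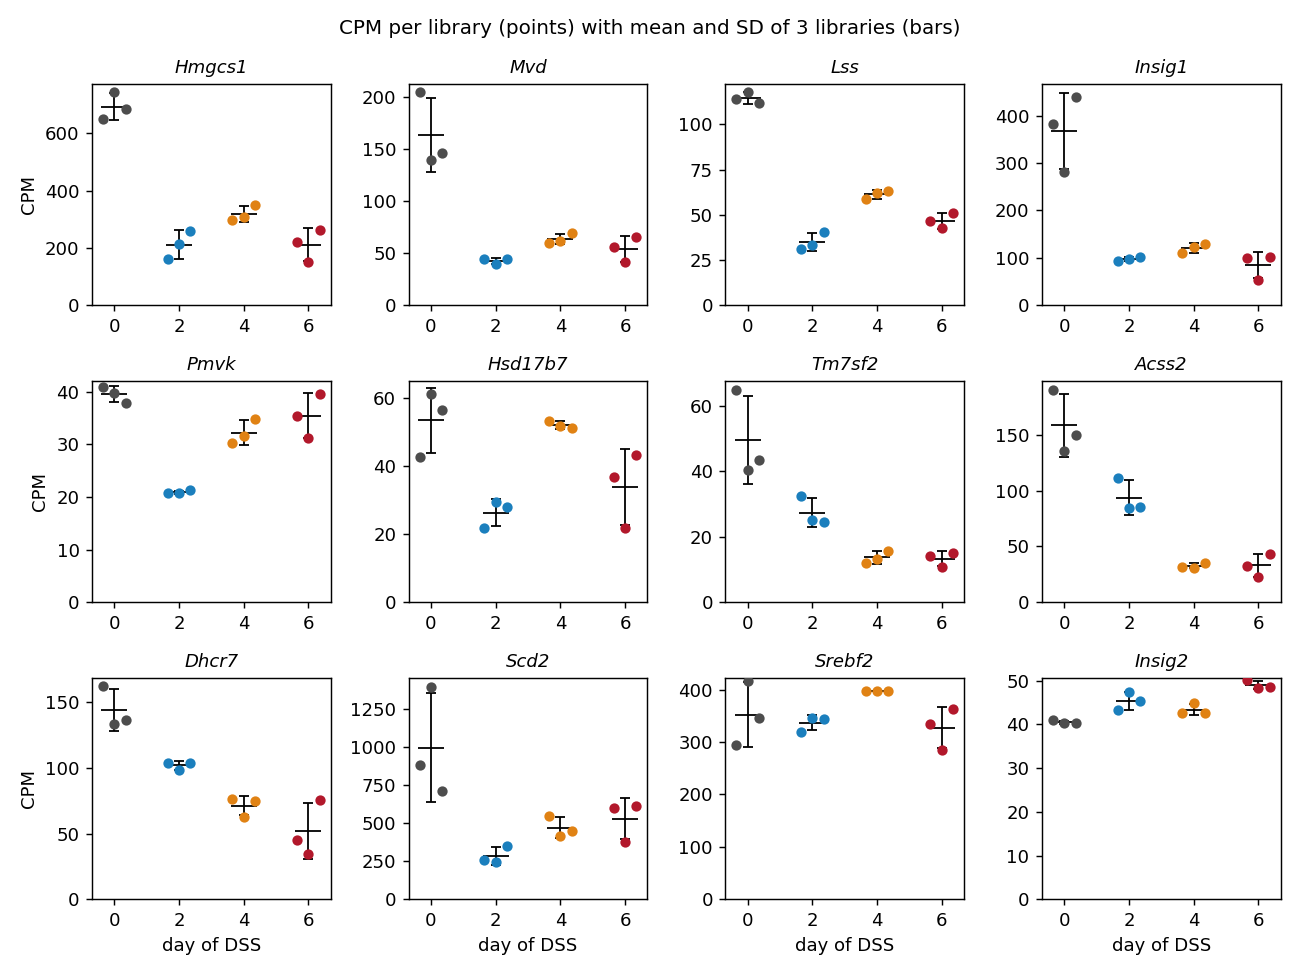
CPM of 12 of the genes against the day of DSS, with 1 point per library and a bar for the mean and SD of 3 libraries. Hmgcs1, Mvd, Lss and Insig1 drop at day 2 and stay below every day 0 library, Pmvk and Hsd17b7 are higher again at day 4, Tm7sf2 and Acss2 reach their low level at day 4, and Srebf2 overlaps between days 0, 2 and 6.

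Among the regulators, Insig1 fell at each later day, and Scap, Srebf1 and Srebf2 passed in none of the 6 comparisons. Insig1, which retains SCAP in the endoplasmic reticulum and is itself an SREBP target, had 383, 281 and 439 CPM at day 0, 92.2, 98.2 and 101 CPM at day 2, 109.5, 123 and 129.7 CPM at day 4 and 99.9, 53 and 101 CPM at day 6. No library of a later day reached the lowest of day 0. Its log2 fold changes against day 0 were -1.89 ± 0.24, -1.58 ± 0.24 and -2.14 ± 0.24 at days 2, 4 and 6 (limma adjusted p = 0.00664, 0.000477 and 4.52e-05). Insig2, its relative, had 40.9, 40.2 and 40.2 CPM at day 0 and 43.2, 47.4 and 45.3 CPM at day 2, above all of day 0 but short of the threshold (limma adjusted p = 0.422). It was called higher at day 6, with 50.2, 48.3 and 48.6 CPM (0.27 ± 0.09, limma adjusted p = 0.0412). Of the leave-one-out fits, only the one without day 6 replicate 2 kept that call (elsewhere up to 0.111). Median-of-ratios scaling (adjusted p = 0.426), quantile normalization (0.599), edgeR (0.398) and DESeq2 (0.298) each ended it, and the median of all genes at day 6 was 0.14. Srebf2 had 293, 416 and 347 CPM at day 0 and 319.8, 346 and 344 CPM at day 2, which overlap, and log2 fold changes of -0.05 ± 0.15, 0.19 ± 0.15 and -0.10 ± 0.15 at days 2, 4 and 6 (limma adjusted p of 0.355 or more). Its sign at days 2 and 6 depended on the scaling or the library left out. Scap, the escort, had log2 fold changes of 0.07 ± 0.11, 0.14 ± 0.11 and 0.13 ± 0.11, with limma adjusted p of 0.365 or more and a sign that changed with the scaling or the library left out. Srebf1 had 134, 150.0 and 115 CPM at day 0 and 94.2, 88.8 and 91.8 CPM at day 2, lower in each library, but the difference did not pass (-0.53 ± 0.14, limma adjusted p = 0.16), and at days 4 and 6 it overlapped day 0. It passed the F test over the 4 days (adjusted p = 0.0452 by limma).

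Enzymes of fatty acid synthesis moved less evenly, with 1 of 8 lower at day 2, 3 at day 4 and 4 at day 6. The shares of all genes called lower on those days were 0.203%, 12% and 12.4%. Scd2, a desaturase that makes monounsaturated fatty acids, had 879, 1394 and 707 CPM at day 0 and 254, 245 and 348 CPM at day 2 (-1.77 ± 0.27, limma adjusted p = 0.0202). It was still lower at day 4 (-1.03 ± 0.27, 0.0134, and 0.0525 without day 4 replicate 2) and at day 6 (-0.88 ± 0.27, 0.0258, and 0.0875 and 0.073 without replicate 2 of day 0 or of day 6). Its neighbour and relative Scd1 stood at 46.1, 62.2 and 48.1 CPM at day 0. It had 28.9, 37.96 and 32.9 CPM at day 4, below all libraries of days 0 and 6, and 63.8, 92.8 and 41.1 CPM at day 6. It was called at no day against day 0, although it passed the limma F test over the 4 days (adjusted p = 0.0379). Near-identical stretches of the Scd genes may share reads. Acly, which makes cytosolic acetyl-CoA from citrate, had 429, 447 and 381 CPM at day 0 and 248, 251 and 256 CPM at day 2 (limma adjusted p = 0.0531) and passed at day 4 (-0.74 ± 0.14, 0.00172) and day 6 (-0.82 ± 0.14, 0.000779).

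Acss2, which makes acetyl-CoA from acetate (chr2:155517948-155585724, plus strand, same annotation), was not called at day 2 and was lower at days 4 and 6. It had 190.4, 136 and 150.3 CPM at day 0, 112, 84.1 and 85.4 CPM at day 2, 31.96, 30.97 and 35.2 CPM at day 4 and 32.8, 22.8 and 43.6 CPM at day 6. The libraries of days 4 and 6 lay below all of day 2, and those below all of day 0. At 20.6% of its day 0 level at day 4 it had the lowest such percentage of the 32 genes that day (-2.23 ± 0.21, limma adjusted p = 2.26e-05), and its fall from day 2 to day 4 passed too (-1.48 ± 0.21, 0.00035). Fasn, fatty acid synthase, fell at day 6 (-0.80 ± 0.24, limma adjusted p = 0.0219), from 225, 443 and 306 CPM to 187, 144 and 212 CPM, a call lost without replicate 2 or 3 of day 0 or replicate 1 or 2 of day 6 (up to 0.0718). Acaca, which makes malonyl-CoA, Elovl6, a fatty acid elongase, and Me1, malic enzyme, passed in none of the 6 comparisons. Elovl6 varied widely at day 0, with 41.2, 129 and 48.5 CPM, which spanned its 50.1, 117 and 96.2 CPM of day 2. Acaca had 58.7, 82.8 and 63.4 CPM at day 0 and 56.8, 55.9 and 59.4 CPM at day 6, and Me1 had 20.3, 35.6 and 35.5 CPM and 28.97, 38.6 and 22.3 CPM, with overlap in both.

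**Figure D3:**
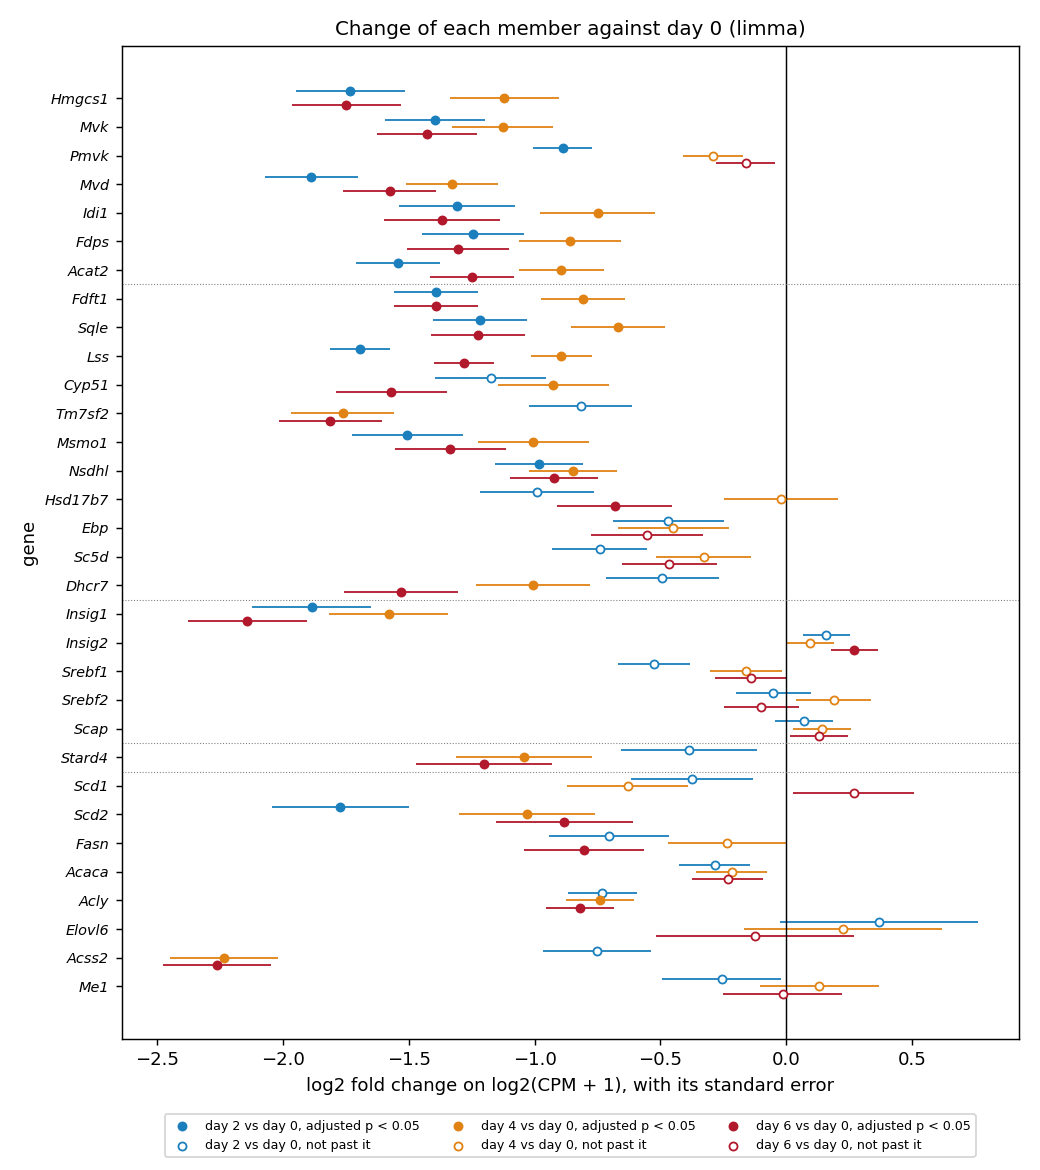
Log2 fold change of each gene against day 0 on the log2(CPM + 1) scale at days 2, 4 and 6, with its standard error; filled points passed an adjusted p of 0.05. Most sterol enzymes and Insig1 lie left of -0.5, and 24 of the 32 genes lie further right at day 4 than at day 2, while Tm7sf2, Dhcr7, Stard4 and Acss2 lie further left.

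At day 4, 19 of the 32 genes were lower than at day 0 and none higher, against 12% and 21.2% of all genes, and no member was higher at an unadjusted p under 0.05, in edgeR or in DESeq2. The median of the members was -0.78, or -0.91 relative to all genes. The libraries lay below those of day 0 for 24 members and above for Insig2, against 20% and 34% of all genes. At day 6, 21 were lower and 1, Insig2, higher, against 12.4% and 23.5%, with a median of -1.06, or -1.20 relative to all genes, and the libraries lay below those of day 0 for 21 and above for 1, against 14.4% and 26.6%. These comparisons share the day 0 libraries. Those lower at all 3 later days numbered 13: Hmgcs1, Mvk, Mvd, Idi1, Fdps, Acat2, Fdft1, Sqle, Lss, Msmo1, Nsdhl, Insig1 and Scd2. Another 6 were called lower at days 4 and 6 but not at day 2, namely Cyp51, Tm7sf2, Dhcr7, Stard4, Acly and Acss2, and whether their course differed from that of the 13 was not tested. Of the calls at day 4, that of Idi1 was lost without any library of day 0 or day 4 (up to 0.087) and that of Sqle without replicate 1 of either day (up to 0.0605). At day 6 Hsd17b7 was lower too (-0.68 ± 0.23, limma adjusted p = 0.037), a call kept only without day 0 replicate 1, day 2 replicate 1 or 2 or day 6 replicate 3 (elsewhere up to 0.108), while Pmvk was at 89.6% of day 0 (limma adjusted p = 0.312). Over the 4 days together, 25 of the 32 passed the F test, against 43% of all genes.

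From day 2 to day 4, 8 of the members (25%) were called higher, a share near the 21% of all genes. Called lower were 2 (6.25%), against 12.9%. The 8 were Hmgcs1, Pmvk, Mvd, Acat2, Fdft1, Sqle, Lss and Hsd17b7, and the 2 were Tm7sf2 and Acss2. Lss rose from 31, 33.4 and 40.5 CPM to 58.6, 62.1 and 63.2 CPM (0.80 ± 0.12, limma adjusted p = 0.000436) and Pmvk from 20.7, 20.7 and 21.3 CPM to 30.2, 31.5 and 34.9 CPM (0.60 ± 0.12, 0.00241). Hsd17b7 had 21.7, 29.3 and 27.8 CPM at day 2 and 53.2, 51.6 and 51.2 CPM at day 4 (0.97 ± 0.23, limma adjusted p = 0.00691), which overlapped the 42.6, 61.1 and 56.4 CPM of day 0. The other 5 rises lay between 0.55 ± 0.19 for Sqle and 0.65 ± 0.17 for Acat2 (limma adjusted p = 0.0411 and 0.0113). As a percentage of day 0, the 14 genes called at day 2 had a median level of 35.7% on that day (range 26.2% to 52.8%). Their median was 53.2% at day 4 (32.8% to 81.4%) and 40.6% at day 6 (23% to 89.6%). Of their day 2 loss in CPM, 8.66% (Insig1) to 60.6% (Pmvk) was regained by day 4.

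The number of rises depended on scaling and on single libraries. It was 4 under median-of-ratios scaling, under quantile normalization and by edgeR, and 5 by DESeq2 or with no filter on low values. Of all genes, 2673, 2486, 2657, 3079 and 3121 were higher in those settings, against 3207 in the main fit. Both scalings and edgeR tested the same 15246 genes as the main fit. Without day 6 replicate 2 the number of members was 14, with 3929 of 15124 genes higher. Without day 6 replicate 3 it was 12, with 3581 of 15187. Without day 2 replicate 1 or 2 it was 4 and 3, with 2677 of 15205 and 2455 of 15193. Without replicates 1, 2 and 3 of day 4 it was 5, 5 and 4. All genes higher were then 2599 of 15225, 2498 of 15174 and 2450 of 15208. Lss, Pmvk, Hsd17b7, Tm7sf2 and Acss2 kept their calls without each of the 12 libraries and in each of the 10 other settings. Acat2 lost its call without day 2 replicate 2 (0.0529) and Fdft1 without day 2 replicate 1 or 2 or day 4 replicate 3 (up to 0.0722). Mvd lost it without any library of day 2 or day 4 (up to 0.118). Hmgcs1 kept it only without day 2 replicate 3 or day 6 replicate 2 or 3 (elsewhere up to 0.184), and Sqle only without these or day 0 replicate 1 (elsewhere up to 0.139).

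Tm7sf2, Dhcr7 and Stard4 were lower at day 6 than at day 2. Tm7sf2 had 64.9, 40.2 and 43.5 CPM at day 0, 32.5, 25.1 and 24.4 CPM at day 2, 11.99, 13.3 and 15.6 CPM at day 4 and 14.1, 10.6 and 14.9 CPM at day 6, and its fall from day 2 to day 4 was -0.95 ± 0.20 (limma adjusted p = 0.00433). Its libraries of days 0, 2 and 4 did not overlap, and those of days 4 and 6 did. Dhcr7, which makes cholesterol from its last precursor, had 162, 134 and 136 CPM, then 104, 98.2 and 104 CPM, 76.05, 62.8 and 74.99 CPM and 45.3, 34.3 and 75.6 CPM, and was lower at day 6 than at day 2 (-1.04 ± 0.23, limma adjusted p = 0.00441). Stard4, a soluble carrier that moves cholesterol between membranes, had 137, 184 and 198 CPM, 120.4, 134 and 138 CPM, 85.5, 75.8 and 86.4 CPM and 86.95, 43.2 and 107 CPM. It was lower at day 4 (-1.04 ± 0.27, limma adjusted p = 0.0123) and at day 6 (-1.20 ± 0.27, 0.00534) than at day 0. Its difference between days 2 and 6 passed as well (-0.82 ± 0.27, limma adjusted p = 0.0373), but not without any library of day 2, replicate 1 or 3 of day 4 or replicate 1 or 2 of day 6 (up to 0.103).

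None of the 32 genes passed the limma test between days 4 and 6, with 11 lower and 1 higher at an unadjusted p under 0.05, where 0.951% and 1.9% of all genes were called lower and higher. edgeR called 1 higher and none lower, and DESeq2 1 higher and 2 lower. The libraries of day 6 spread widely. In all 18 enzymes of sterol synthesis day 6 replicate 2 had the lowest value of that day and replicate 3 the highest. Hmgcs1 had 221, 149.9 and 263 CPM and Cyp51 101, 65.97 and 145 CPM in replicates 1, 2 and 3. Without day 6 replicate 3, 8 members were called lower than at day 4, against none with it. The share of all genes called lower was then 5.04%, against 0.951% with it. Against day 2, day 6 had 4 members lower, Tm7sf2, Dhcr7, Stard4 and Acss2, and 3 higher, Pmvk, Lss and Scd2, against 12.2% and 21.1% of all genes. The number higher was 1 with median-of-ratios scaling or in edgeR, 7 without day 6 replicate 2, and 1 without day 2 replicate 1 or 2 or day 6 replicate 1. Pmvk kept its rise in each of these fits (0.73 ± 0.12, limma adjusted p = 0.000663).

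The level of the epithelium in each library was set beside the sterol enzymes. The summed level of the 18 enzymes was 2886 to 3313 CPM in the day 0 libraries. It was 1170.5 to 1335 CPM in those of day 2, 1579.6 to 1727 in those of day 4 and 874 to 1556 in those of day 6. That of 13 epithelial markers was 14883 to 21682, 17085 to 20168, 13037 to 16222 and 7777 to 19780.1 CPM on the same days, so days 0 and 2 overlapped, and none of the 13 was called at day 2 (none at an unadjusted p under 0.05, and a median of -0.01). At days 4 and 6, 2 of the 13 (15.4%) were lower, near the 12% and 12.4% of all genes. None was higher, against 21.2% and 23.5%. At day 6 the markers summed to 7777 CPM in replicate 2 and 19780.1 in replicate 3, the same order as the sterol enzymes. Per 1000 CPM of the markers the enzymes had 153 to 198, 58.04 to 78.1, 98.6 to 121 and 78.7 to 112 CPM on days 0, 2, 4 and 6, and no library of a later day reached those of day 0. Without Krt8, Krt19 and Lgals4, the most abundant markers, these ranges were 349 to 457, 117 to 172, 197 to 267 and 172 to 206 CPM. Which cells of the tissue made the enzymes' RNA was not tested, so the ratio is not a level per epithelial cell.

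**Figure D4:**
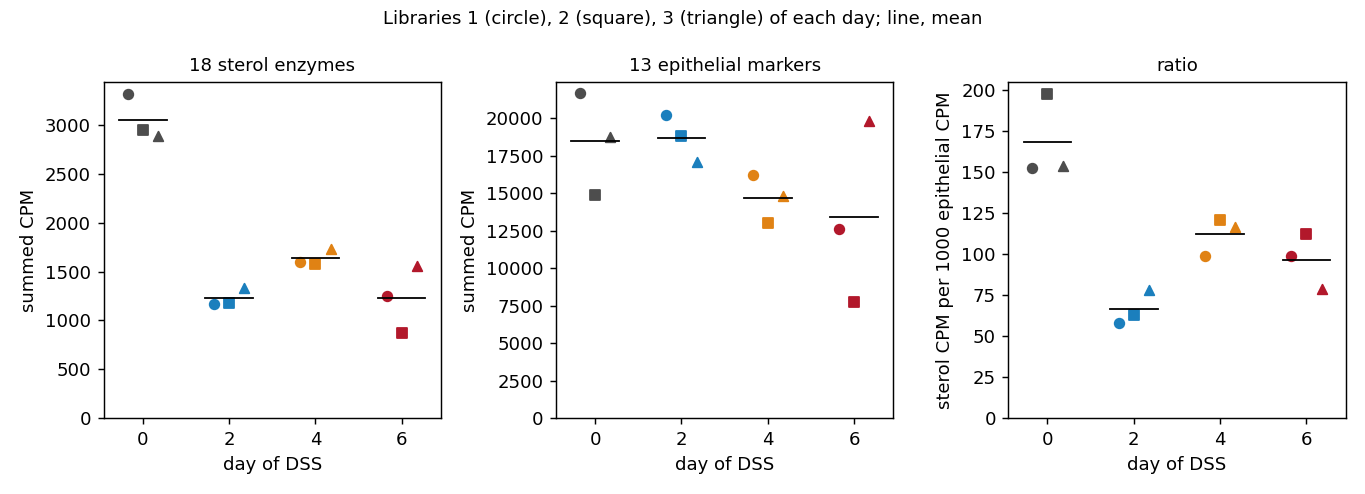
Summed CPM of the 18 enzymes of sterol synthesis, summed CPM of the 13 epithelial markers, and their ratio, per library against the day of DSS, with a line at each day's mean. The enzymes drop at day 2 while the markers of days 0 and 2 overlap, and the ratio at days 2, 4 and 6 stays below that of day 0.

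Other cell types moved with the days too. Proliferation genes, 10 markers of dividing cells, summed to 602 to 658, 313 to 422, 921 to 1306 and 279 to 856 CPM on days 0, 2, 4 and 6. None was called at day 2, with 4 lower at an unadjusted p under 0.05 and a median of -0.84. For 9 of the 10, all day 2 libraries lay below all of day 0, against 12% of all genes. From day 2 to day 4, 9 of the 10 were called higher, against 21% of all genes. Smooth muscle markers summed to 9211 to 12219, 12939 to 16076, 4503 to 7229.7 and 3281 to 8331 CPM, with none of 9 called at day 2, 4 lower at day 4 and 6 lower at day 6. Leukocyte markers summed to 227 to 290.3, 191 to 263, 627 to 868 and 1005 to 1612 CPM, with 8 of 10 higher and 1 lower at day 4 and 9 higher and 1 lower at day 6. These muscle and leukocyte counts at days 4 and 6 stand beside 12% and 12.4% of all genes called lower and 21.2% and 23.5% called higher. Fat cell markers summed to 174 to 256, 244 to 275, 68.7 to 109.8 and 77.9 to 199 CPM. Pck1, which epithelium also makes, took 115 to 217 CPM of that sum at days 0 and 2 and 5.35 to 17.5 CPM later. Skeletal muscle markers summed to 28.3 to 171, 23.9 to 36.7, 48.6 to 84.5 and 9.64 to 107 CPM. The part of these cells in the changes of the sterol genes was not tested.

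Around the pathway, 63 genes in 5 lists chosen by function were examined. Their counts at days 4 and 6 stand beside 21.2% and 23.5% of all genes called higher and 12% and 12.4% called lower. Of these 1 was called at day 2, Aacs, which makes acetoacetyl-CoA from ketone bodies, at 223, 238 and 241 CPM on day 0 and 87.4, 90.1 and 90.6 CPM on day 2 (-1.38 ± 0.22, limma adjusted p = 0.0273). That call was lost without any library of day 0 or day 2 or without day 4 replicate 1 or 3 (up to 0.137), and Aacs was lower at day 6 too (-1.40 ± 0.22, 0.000569). Of 17 further genes of fatty acid and glycerolipid synthesis, 3 were higher and 4 lower at day 4. Acsl3, which activates fatty acids, fell by 1.12 ± 0.18 at day 4 (limma adjusted p = 0.000783), the sugar-sensing transcription factor Mlxipl by 1.34 ± 0.32 (0.00834) and Lpin1, a phosphatidate phosphatase, by 1.07 ± 0.28 (0.0119, lost without day 0 replicate 3). Agpat2 and Dgat2, which build triglyceride, rose by 1.17 ± 0.20 (0.00107) and 1.05 ± 0.23 (0.0054), and the elongase Elovl5 by 0.52 ± 0.15 (0.0233, lost with quantile normalization, in edgeR and without replicate 1 or 3 of day 0 or 2 or 3 of day 4). At day 6, 4 of the 17 were higher and 4 lower. The shares higher were thus 17.6% and 23.5%, and the share lower was 23.5% on both days.

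Of 11 genes of the liver X receptors, which respond to oxysterols, and of oxysterol metabolism, none was called at day 2 (3 higher at an unadjusted p under 0.05), 3 were higher at day 4 and 4 at day 6, and none lower. These are 27.3% and 36.4% of the list, beside 21.2% and 23.5% of all genes. Ch25h, which makes 25-hydroxycholesterol, an oxysterol that binds INSIG, had 1.80, 1.18 and 0.919 CPM at day 0, 2.34, 1.59 and 3.43 CPM at day 2, 13.9, 18.2 and 15.8 CPM at day 4 and 17.8, 22.6 and 12.7 CPM at day 6. Days 0 and 2 overlapped and days 4 and 6 lay above both (2.89 ± 0.25 and 3.01 ± 0.25 against day 0, limma adjusted p = 1.22e-05 and 6.55e-06). Cyp7b1, which hydroxylates 25-hydroxycholesterol further, had 1.02, 1.46 and 2.28 CPM at day 0, 4.76, 9.18 and 7.33 CPM at day 4 and 20.9, 32.3 and 9.77 CPM at day 6 (2.97 ± 0.38, limma adjusted p = 0.00013). The sterol exporters Abcg1 and Abca1 rose by 1.28 ± 0.23 at day 4 (0.00144) and by 2.38 ± 0.45 at day 6 (0.00182). Macrophages make these genes as well. Most leukocyte markers were higher on the same days, and their part in these rises was not tested.

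Of 14 genes of sterol uptake, transport and esterification, 3 were higher and 2 lower at day 4, and 5 and 2 at day 6, and the shares at day 4, 21.4% and 14.3%, were near those of all genes. Soat2, which esterifies cholesterol, rose from 1.83, 2.30 and 2.52 CPM to 5.25, 6.86 and 6.97 CPM at day 4 and 9.51, 12.3 and 7.89 CPM at day 6 (1.75 ± 0.19, limma adjusted p = 3.66e-05), and Lrp8, a lipoprotein receptor, by 1.55 ± 0.27 at day 4 (0.00137). Vldlr, another lipoprotein receptor, fell from 24.8, 30.4 and 38.2 CPM to 14.2, 14.5 and 9.66 CPM at day 6 (-1.22 ± 0.19, limma adjusted p = 0.000567). Of 11 genes that process SREBP or degrade its partners, 2 rose at day 4 and 3 at day 6, 18.2% and 27.3% of the list, near the 21.2% and 23.5% of all genes. Fbxw7, which marks nuclear SREBP for degradation, was among them at both days (0.87 ± 0.21, limma adjusted p = 0.00812, and 0.87 ± 0.21, 0.00726), as was the protease gene Mbtps2 (0.51 ± 0.16, 0.0269, and 0.45 ± 0.16, 0.0428), whose calls were lost under either scaling, in edgeR and DESeq2, and without day 0 replicate 1 or day 4 replicate 1 or 2. Tmem97, a sterol-responsive membrane protein, fell at day 6 (-1.56 ± 0.43, 0.0151), a call lost without day 0 replicate 1 (0.0666). Of 10 genes that use isoprenoids for other products, Nus1, of dolichol synthesis, rose at day 4 (0.79 ± 0.15, 0.00241), and 2 were higher and 1 lower at day 6.

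**Figure D5:**
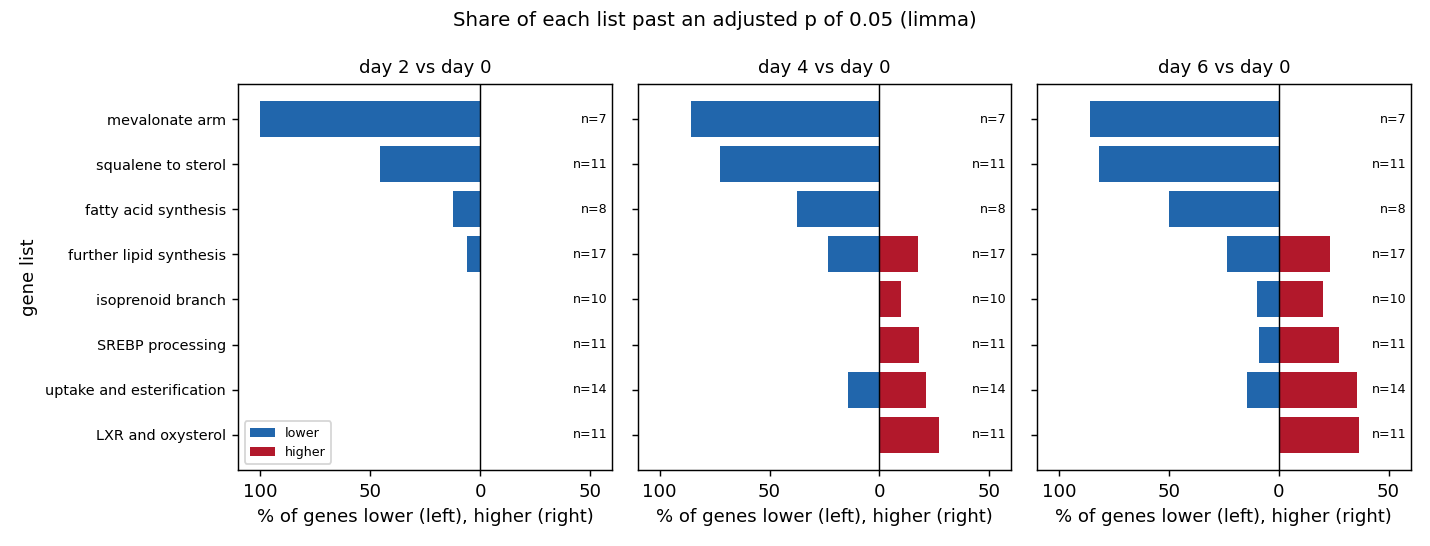
Percentage of each gene list called lower (left) or higher (right) than day 0 at days 2, 4 and 6, with the number of genes tested in each list. At day 2 the calls lie in the lists of sterol and fatty acid enzymes and of further lipid synthesis. At days 4 and 6 the liver X receptor and oxysterol list has rises and no falls. The regulators and the sterol carrier are not shown.

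Exons of 13 of the 32 genes overlap those of another gene in GENCODE release M21, and of 6 those of a protein-coding one. Fdft1 overlaps Ctsb over 774 bases and Cyp51 overlaps Akap9 over 166 bases on the opposite strand, while Fdps shares 1124 bases with Gm43738 and Tm7sf2 shares 532 with Vps51 on its own strand. How such reads were assigned is not given in the sources used here, and to that extent the values of these genes are uncertain.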

How the data were processed

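Poly(A) RNA of mid-colon was sequenced as dUTP-marked paired-end libraries, per the labels' protocols. Per the submitters' processing notes, HISAT2 2.2.1 aligned the reads to mm10 and featureCounts 2.0.1 did the counting; which annotation and strand setting it used is not given in the sources used here. The authors deposited CPM per gene and library, summing to between 992026 and 998040. Divided by the value of 1 read, 100% of values were whole within 0.1, and these recovered reads (30979977 to 40930613 per library) served edgeR 4.0.16 and DESeq2 1.42.0 as alternatives. A gene at 1 CPM thus rests on over 30 reads, and floors or intervals from amplified reads would cover counting error only.

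Tests used limma 3.58.1 under R 4.3.3, fitting 4 day means to log2(CPM + 1) over 12 libraries, with trend and robust moderation, and Benjamini-Hochberg adjustment over the 15246 tested genes of each comparison, threshold 0.05. Fold changes on this scale understate those of low genes. The fit was also run on simulated counts with the same spread for all genes and libraries. The real libraries differed in spread, so that run does not measure the error rate here. The members and lists were chosen with earlier results of these data known. All members are named, and from each other list up to 3 genes with the largest change past the threshold in each direction. Alternatives were pseudocounts 0.5 and 5, quantile normalization, median-of-ratios scaling, no filter, a filter at a mean of 5 CPM, plain moderation, the replicate block, both count tools, and leaving out each library. No pair of libraries agreed within sampling noise.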

Additional observations from a re-analysis of the deposited data

How the results depend on the processing

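No call of a member or of a named pathway gene reversed its direction under any setting run. Values that had not passed changed sign in 110 instances, those of Srebf2 and Scap among them. Counts of members that moved by over 1.5 times were these. The 8 higher at day 4 than at day 2 became 4 with median-of-ratios scaling, quantile normalization and edgeR, and 5 in DESeq2 and with no filter on low values. The 1 higher at day 6 than at day 0 became 0 with both scalings, without trend and robust moderation, with the replicate block, in edgeR and in DESeq2. From day 4 to day 6, the 0 higher became 1 with the replicate block, in edgeR and in DESeq2, and the 0 lower became 2 in DESeq2. From day 2 to day 6, the 3 higher became 1 with median-of-ratios scaling and in edgeR and 5 with the replicate block. The cause was not tested. All-gene counts at day 2 were 18 higher and 31 lower by limma, 13 and 22 by edgeR and 189 and 357 by DESeq2.

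Leaving out 1 library at a time gave, against day 0, 5 to 21, 17 to 23 and 18 to 23 members lower on days 2, 4 and 6, with 0 to 1 higher at day 6 and 0 at days 2 and 4. It gave 3 to 14 higher and 2 to 4 lower from day 2 to day 4, 0 to 1 higher and 0 to 8 lower from day 4 to day 6, and 1 to 7 higher and 3 to 5 lower from day 2 to day 6. The F test called 21 to 25. Replicate numbers are shared only as numbers: same-numbered libraries of different days correlated in their deviations at -0.21 to 0.64 (median 0.04), with 7 of 18 pairs over 0.1, and 5 of 12 libraries correlated best with their own number. The replicate block called 14, 20 and 22 members lower at days 2, 4 and 6. With 3 libraries a day, small changes such as those of Scap and Srebf2 were not resolved.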
